A study of Mus musculus with 4 samples.

Results

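The cells described here are plasmacytoid dendritic cells found among the leukocytes of mouse fibrosarcomas. They were picked by raw counts of unique molecular identifiers (UMIs, 1 per captured transcript): at least 2 of Siglech and at least 1 of Tcf4, at most 3 of C1qa, C1qb and C1qc together, and at most 1 of Cd3d, Cd3e and Cd3g together. Among cells with at least 200 genes and at most 10% mitochondrial UMIs, 98 of 27705 met the rule, which is 0.354%, and 30504 barcodes had been deposited. The rule read measured expression, so differences between these cells and other cells are given below as a description with no test. Differences between tumour genotypes were not used by the rule and were tested.

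Tumours labelled Raldh1/3 DKO (DKO below, with Raldh1 and Raldh3 as the named double knockout) were set against Cas9 Control tumours (control below). Both were untreated and were harvested on day 11 after implantation, when live CD45+ leukocytes were sorted and profiled by 10x Genomics 3′ v3 droplet sequencing. The design asks how tumour leukocytes differ when the tumour lacks these retinoic acid-making enzymes. There were 2 libraries of each genotype, every one a pool of 2 tumours, so the library was the replicate and every p-value below measures the spread between pools. The mouse strain, sex and age, and whether the knockout came from 1 clone of tumour cells, are not given in the sources used here.

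Plasmacytoid dendritic cells are sentinels for viral nucleic acids. Toll-like receptors in their endosomes, chiefly Tlr7 and Tlr9, read RNA and DNA and signal through Myd88 and Irf7 to very high output of type I interferon. The E protein Tcf4 (E2-2) sets their identity and is opposed by Id2, which other dendritic cells rely on. In tumours these cells are mostly described as poor interferon producers that can favour tolerance.

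The promoters of 3 genes with high levels in these cells are printed to show where E protein motifs lie near their starts, since E proteins such as Tcf4 bind E-boxes. The sequences run from 250 bases before to 50 bases after the RefSeq start on GRCm38.p6, on the plus strand for each gene, and capitals mark CAGGTG or its reverse complement CACCTG. Siglech, the sialic acid-binding receptor that is the mouse marker of these cells, is at chr7:55767934-55768233. Ccr9, a chemokine receptor, is at chr9:123766961-123767260. Klk1, a tissue kallikrein protease, is at chr7:44225110-44225409.
Siglech: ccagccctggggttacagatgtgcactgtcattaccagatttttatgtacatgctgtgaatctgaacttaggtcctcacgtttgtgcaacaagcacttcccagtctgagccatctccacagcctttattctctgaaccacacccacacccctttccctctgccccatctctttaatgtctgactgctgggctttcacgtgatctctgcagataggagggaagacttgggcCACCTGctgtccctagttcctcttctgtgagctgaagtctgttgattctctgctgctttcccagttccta
Ccr9: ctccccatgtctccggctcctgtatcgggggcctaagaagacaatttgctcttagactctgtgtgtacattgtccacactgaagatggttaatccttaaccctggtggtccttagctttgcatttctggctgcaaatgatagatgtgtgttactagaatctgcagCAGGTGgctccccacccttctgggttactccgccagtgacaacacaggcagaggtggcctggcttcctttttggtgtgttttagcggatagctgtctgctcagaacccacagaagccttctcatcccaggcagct
Klk1: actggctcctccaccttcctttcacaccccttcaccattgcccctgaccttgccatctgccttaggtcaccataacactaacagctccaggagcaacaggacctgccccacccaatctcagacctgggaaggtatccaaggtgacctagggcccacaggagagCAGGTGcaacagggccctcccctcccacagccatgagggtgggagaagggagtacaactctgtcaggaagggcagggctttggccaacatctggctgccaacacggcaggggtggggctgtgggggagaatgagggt

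Each of the 3 windows held 1 such match. The windows of Spib, Dntt and Atp1b1, also high in these cells, were examined too and held none. RefSeq promoters were at hand for 19 of the 30 genes that led the plasmacytoid cells (named below), with 23 starts in all. CAGGTG, read on both strands, was in 10 of those 23 windows (43.5%) and in 20.2% of 32851 windows of the same length over all genes. CAGCTG, another E-box, was in 2 of the 23 (8.70%) and in 16.3% of all windows, also on both strands. A stretch of bases cannot count under both, and Klk1 and Klk1b27, which both held CAGGTG, are close paralogs. A match is a description of letters, and no binding was measured.

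The library totals ran from 57458026 to 80032966 UMIs. The plasmacytoid cells held 842093 UMIs, with a median of 8326 per cell against 7595 over all filtered cells. They lay between 2045 and 20966 UMIs, and 3 of them exceeded 15000. No plasmacytoid cell shared its barcode with a cell of another library, although 110 barcodes occurred in more than 1 library. A further 12 barcodes met the gene rule but failed the cell filter, and 5 of the 98 cells were among the highest doublet scores. The median share of mitochondrial UMIs was 5.60% and 5.63% in plasmacytoid cells of the DKO libraries and 5.09% and 5.04% in those of the control libraries, above the 3.25% of type 1 and 3.26% of type 2 dendritic cells.

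The label was checked against marker genes, most of which the rule did not read. Bst2 (tetherin) had a UMI in 98 of 98 cells and Irf8, a transcription factor of plasmacytoid and type 1 dendritic cells, in 94. Of the 13 plasmacytoid markers, the 11 that the rule did not read were each detected. Levels below are UMIs per 1000000 UMIs of the same cells (CPM). The defining B cell genes Cd79a, Ms4a1, Pax5 and Ebf1 had 0 UMIs in the 98 cells, and 2 of the 7 B cell markers were detected, Igkc with 153 UMIs and Cd79b with 29. The B cell list summed to 416 and 118 CPM in DKO and 161 and 418 CPM in control, most of it Igkc. Monocyte markers summed to 4669 and 4076 CPM in DKO and 4286 and 4140 CPM in control, and 93 of 98 cells held at least 10 UMIs of them. Ly6c2 and Plac8, which are also on the plasmacytoid identity list, made up 956 and 2442 of those UMIs. Ccr2, which is not on that list, had 151 UMIs in 41 of 98 cells, and Vcan, Ifitm6 and Chil3 had 1, 5 and 15. Type 2 dendritic markers summed to 888 and 1185 CPM in DKO and 1323 and 1174 CPM in control, and 38 cells held at least 10 UMIs of them. Cd7, also on the identity list, was the highest at 352 UMIs, and Cd209a had 136 UMIs in 34 cells. In the 91 cells left when the 7 described below are set apart, Clec10a had 309 CPM and Sirpa 213 CPM. Type 2 dendritic cells had 402 and 357 CPM of them. Mgl2 and Itgam had 43.4 and 37.0 CPM in the 91 cells, against 1557 and 234 CPM in type 2 dendritic cells. Macrophage markers summed to 342 and 435 CPM in DKO and 373 and 461 CPM in control. Neutrophil markers summed to 0 and 0 CPM in DKO and 7.31 and 8.70 CPM in control, and cycling markers to 16.3 and 12.1 CPM in DKO and 14.6 and 17.4 CPM in control. Type 1 dendritic markers summed to 179 and 106 CPM in DKO and 124 and 200 CPM in control. For transitional dendritic markers it was 562 and 705 CPM in DKO and 625 and 757 CPM in control. Mature dendritic markers had 8.15 and 57.5 CPM in DKO and 168 and 26.1 CPM in control. Natural killer markers had 8.15 and 12.1 CPM in DKO and 161 and 8.70 CPM in control. Of 37 Gzma UMIs, control 1 cells among the highest doublet scores held 18 and 14. T cell markers summed to 440 and 226.8 CPM in DKO and 244.8 and 339.2 CPM in control, with 123 UMIs of Cd4 and 100 of Cd8a, which mouse plasmacytoid cells are known to carry. C1qa had a UMI in 26.5% of the cells, 7.37% once each cell was thinned to 3000 UMIs (3 plasmacytoid cells were shallower and left out). The shares were 25.7% and 14.4% of T cells, which had a median of 5479 UMIs. The plasmacytoid and T gates both capped C1q at 3 UMIs per cell, so these shares were limited by the gates. The source of these UMIs was not tested.

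Few cells lay near the lower limit of the rule. Of the cells that met the C1q and Cd3 limits, 8154 had 0 Siglech UMIs, 15 had 1, 5 had 2 and 3 had 3. The 15 cells just outside, of which 10 had Tcf4, averaged 0.4 Ccr9 and 0.133 Cox6a2 UMIs, and the 5 cells just inside averaged 4.4 Ccr9 and 0.2 Cox6a2 UMIs. Of those 5 cells, 1 had 12 Ccr9 UMIs, 1 had 8 and 3 had 0 or 1. Siglech ranged from 2 to 55 UMIs per plasmacytoid cell with a median of 20, and Tcf4 from 2 to 60 with a median of 20. The C1q limit alone kept out 6 cells with 4 to 176 C1q UMIs, and the Cd3 limit alone kept out 2 cells with 16 and 15.

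Plasmacytoid cells made up 0.228% (95% Clopper-Pearson interval 0.128 to 0.377%) and 0.617% (0.417 to 0.880%) of the DKO libraries, as 15 of 6565 and 30 of 4859 cells. They made up 0.459% (0.325 to 0.630%) and 0.187% (0.105 to 0.309%) of the control libraries, as 38 of 8276 and 15 of 8005 cells. The groups overlapped, and within each group 1 library had a share more than 2 times that of the other. The mean was 0.423% ± 0.275 in DKO and 0.323% ± 0.192 in control (SD, n = 2 each), and the exact two-sided permutation test gave p = 0.667, where 2 libraries against 2 cannot give less than 1 in 3. The intervals cover counting error alone.

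**Figure D1:**
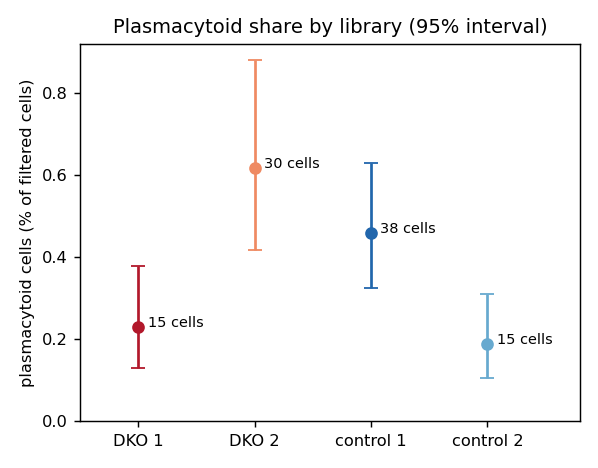
Plasmacytoid cells as a percentage of filtered cells in each library, with the 95% Clopper-Pearson interval and the number of cells. DKO 2 (0.617%) and control 1 (0.459%) are high and DKO 1 (0.228%) and control 2 (0.187%) are low, so the groups overlap.

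The order of the group means depended on the cells counted. Set against gated dendritic cells alone, plasmacytoid cells were 9.15% and 13.4% in DKO and 16.2% and 10.1% in control. With a limit of 5% mitochondrial UMIs they were 0.147% and 0.210% in DKO and 0.294% and 0.105% in control. Leaving out DKO 2 or control 2 also turned it, and the difference in share was within the spread between pools.

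The genes that led these cells over all other filtered cells, by the ratio of pooled CPM with 1 CPM added, are listed as a description. The 30 were, from the top, Ccr9, Klk1, Gm21762, Cox6a2, Dntt, Ly6d, Iglc3, Paqr5, Klk1b27, Fcrla, Cacna1e, Smim5, AC140186.1, Spib, Bcl11a, Atp2a1, Ptprf, Pdzd4, Cd300c, Mzb1, Chdh, Upb1, Sh3bgr, Lefty1, Atp1b1, Adam11, Havcr1, Cd209d, Foxr1 and Spns3. Klk1 with Klk1b27, Iglc3 with Iglc2 and Cd209d with Cd209a are near-identical family members, and their split of reads is uncertain.

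Ccr9 had 3569 and 2531 CPM in DKO and 1666 and 1627 CPM in control, with a UMI in 95 of 98 cells. Pooled type 1 dendritic cells had 9.89 CPM. Thinned to 3000 UMIs, 90.5% of plasmacytoid cells had a Ccr9 UMI against 0.390% of T cells. Klk1 had 1670 and 1285 CPM in DKO and 793 and 1192 CPM in control, and 0 UMIs in the gated type 1, type 2 and mature dendritic cells and B cells. Cox6a2, the subunit of cytochrome c oxidase otherwise known from heart and skeletal muscle, had 1263 and 1161 CPM in DKO and 1250 and 2322 CPM in control. The other cell gates had at most 8.73 CPM of it. Its widely expressed paralog Cox6a1 had 310 and 302 CPM in plasmacytoid cells of DKO and 281 and 287 CPM in those of control, and 221.6 to 392 CPM in the other gates.

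Atp2a1, Cacna1e and Atp1b1 encode ion pumps or channels and were also among the leading genes. Atp2a1, the calcium pump of fast muscle, had 122 and 121 CPM in DKO and 132 and 148 CPM in control. Cacna1e, a voltage-gated calcium channel subunit, had 139 and 169 CPM in DKO and 161 and 130 CPM in control. Atp1b1, the beta subunit of the sodium-potassium pump, had 766 and 584 CPM in DKO and 716 and 618 CPM in control, against 0.306 to 23.7 CPM in the other gates.

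Of 30 plasmacytoid identity genes that the rule did not read, 30 were detected and 28 had their highest pooled CPM in plasmacytoid cells among the 7 populations gated. The 2 exceptions were Ly6d, with 1296 CPM against 1327 CPM in B cells, and Lag3, an inhibitory receptor, with 198 CPM against 248 CPM in T cells. All 30 were above type 1 dendritic cells in 4 of 4 libraries, and 29 were above type 2 dendritic cells in 4 of 4. The summed level was 27248 CPM in plasmacytoid cells, 4450 in type 1 dendritic cells, 2733 in type 2 and 2212 in mature dendritic cells.

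**Figure D2:**
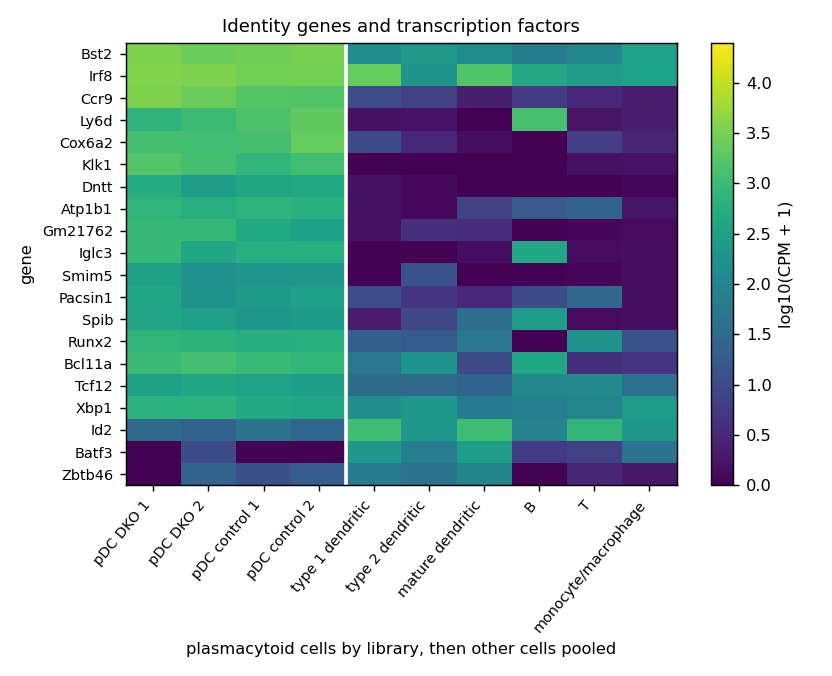
Heat map of log10(CPM + 1) of identity genes and transcription factors (rows) in the plasmacytoid cells of each library and in 6 other gated populations, each pooled over 4 libraries. The upper rows are bright in the plasmacytoid columns and dimmer in most other columns. Bst2, Irf8, Ly6d and Iglc3 are among those that are not dark in every other column. Id2, Batf3 and Zbtb46 are brighter in the type 1 dendritic column than in the plasmacytoid ones. Batf3 is also dim in the B and T columns, and Zbtb46 in the monocyte/macrophage column.

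The transcription factors set plasmacytoid cells apart from conventional dendritic cells in both directions. Runx2, which is known to aid the exit of these cells from bone marrow, had 758 and 695 CPM in DKO and 555 and 600 CPM in control, against 22.1 CPM in type 1 dendritic cells. Bcl11a, an activator of Tcf4, had 1010 and 1228 CPM in DKO and 935 and 826 CPM in control, against 51.8 CPM. Spib, an Ets factor, had 375 and 311 CPM in DKO and 208 and 252 CPM in control, against 1.16 CPM. The E protein Tcf12 and the secretory regulator Xbp1 were also at their highest here, with 365 and 588 CPM pooled.

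Several factors of conventional dendritic cells were low. Id2, the inhibitor of E proteins, had 28 UMIs in all, which is 32.6 and 24.2 CPM in DKO and 47.5 and 26.1 CPM in control, against 1140 CPM in type 1 dendritic cells. Batf3 had 3 UMIs, Zfp366 had 4 and Zbtb46 had 13, against 219, 123 and 60.5 CPM in type 1 dendritic cells. Spi1 (PU.1) had 113 CPM pooled, against 419 CPM in type 1 and 576 CPM in type 2 dendritic cells. Cbfa2t3 and Klf4, also on the list of transcription factors, were not as low. Cbfa2t3 had 287 CPM pooled, against 430 CPM in type 1 and 366 CPM in type 2 dendritic cells. Klf4 had a UMI in 61 of 98 cells, with 839 CPM in the 7 cells described below and 260 CPM in the other 91. Type 1 and type 2 dendritic cells had 230 and 560 CPM of Klf4.

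Among the endosomal receptors Tlr7 was the one with a clear count. Tlr7 had 253 and 169 CPM in DKO and 168 and 139 CPM in control, with a UMI in 61 of 98 cells. After thinning, 41.1% of plasmacytoid and 0.624% of T cells had one. Type 1 and type 2 dendritic cells had 0.582 and 3.98 CPM. Tlr9 had 9 UMIs in 7 cells and Tlr3, which type 1 dendritic cells use, had 0 against 184 CPM in those cells. A count of 0 allows a level of up to 3.56 CPM over the 98 cells.

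The machinery around those receptors was well covered. Unc93b1, which carries Toll-like receptors to endosomes, had 799 and 620 CPM in DKO and 625 and 539 CPM in control. Pld4, an endosomal nuclease, had 1304 and 1134 CPM in DKO and 870 and 818 CPM in control. Ctsl, a protease that cleaves the receptors, had 1752 and 1346 CPM in DKO and 1301 and 1157 CPM in control, against 34.3 CPM in type 1 dendritic cells. Irf7, the factor that drives interferon genes, had 228 and 194 CPM in DKO and 259 and 244 CPM in control. Of the 26 genes of this list, 25 were detected and 13 were at their highest in plasmacytoid cells.

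Interferon transcripts themselves were nearly lacking. Of 20 type I and type III interferon genes, 19 had 0 UMIs, and the 1 UMI found was Ifnb1 in a cell of DKO 2. For the genes at 0 this allows up to 3.06% of plasmacytoid cells to hold a UMI, and levels up to 24.4 and 9.07 CPM in DKO 1 and 2 and up to 11.0 and 26.1 CPM in control 1 and 2. The Ifna genes are near-identical copies, and reads shared between them may not have been counted. The 27607 other cells held 32 interferon UMIs in all.

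Receptors for interferon were present. Ifnar1 had 334 and 296 CPM in DKO and 256 and 261 CPM in control, and Ifnar2 had 334 and 333 CPM in DKO and 270 and 278 CPM in control. Both were at their highest in plasmacytoid cells among the gates. Interferon response genes varied from cell to cell. Isg15 had 16.3 and 42.3 CPM in DKO and 69.4 and 400 CPM in control, and 1 control 2 cell of 20192 UMIs held 23 of its 81 UMIs. Ly6a had 1573 and 1276 CPM in DKO and 1173 and 2131 CPM in control. Ifit3 had 0 UMIs.

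Receptors and adaptors that tune interferon output were next. Tyrobp (DAP12), the signalling adaptor that pairs with Siglech, had 3455 and 2389 CPM in DKO and 3584 and 3636 CPM in control. Lair1, a collagen receptor, had 771 CPM pooled, Ptprs, a receptor phosphatase, 300 CPM, and Blnk, a B cell linker protein, 354 CPM. The 22 genes of this list were each detected, and their summed level was 9958 CPM against 1790 CPM in type 1 and 4651 CPM in type 2 dendritic cells and 5598 CPM in monocytes and macrophages. Of the 22 genes, 10 were at their highest in plasmacytoid cells, and Tyrobp and Bst2 had 3103 and 2852 of the 9958 CPM.

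Antigen presentation genes were mostly lower than in conventional dendritic cells. H2-Aa, an MHC class II chain, had 1344 and 792 CPM in DKO and 979 and 2035 CPM in control, against 7513 CPM in type 1 and 7468 CPM in type 2 dendritic cells. The control 2 cell of 20192 UMIs alone held 126 of the 929 H2-Aa UMIs. The costimulatory genes Cd80, Cd86 and Cd40 had 6, 14 and 14 UMIs. The 21 genes of this list summed to 15901 CPM in plasmacytoid cells, against 48606 in type 1 and 51073 in type 2 dendritic cells, and 0 of the 21 were at their highest in plasmacytoid cells. The class I genes H2-K1 and B2m had 2256 and 3115 CPM pooled, against 1166 and 1725 CPM in type 1 dendritic cells.

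Cytokine and effector transcripts were few. Ccl4, a chemokine, had 1361 and 807 CPM in DKO and 804 and 1296 CPM in control. Il12a, the p35 chain of interleukin 12, had 42 UMIs in 23 cells and at most 11.3 CPM in any other gate, while Il12b, its partner chain, had 0. Il6, Il10, Ido1, Ido2 and Nt5e had 0 UMIs, Gzmb had 3 and Tnf had 5. Cxcl9 had 55 UMIs, of which the control 2 cell of 20192 UMIs held 41.

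Receptors for growth factors and homing molecules were measured as well. Flt3, the receptor for the main dendritic growth factor, had 310 and 236 CPM in DKO and 230 and 113 CPM in control. Il7r, the interleukin 7 receptor, had 709 and 556 CPM in DKO and 544 and 635 CPM in control. Selplg, a ligand of selectins, had 1304 and 1206 CPM in DKO and 1030 and 765 CPM in control. Ccr7, the lymph node homing receptor of mature dendritic cells, had 4 UMIs, against 3552 CPM in mature dendritic cells, and S1pr1 and Ccr6 had 0.

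Lymphoid transcripts accompanied the plasmacytoid program. Ighm, the immunoglobulin mu chain, had a UMI in 96 cells, with 1442 and 1282 CPM in DKO and 1052 and 1105 CPM in control. It also had a UMI in 31.7% of T cells, 21.5% after thinning, against 91.6% of thinned plasmacytoid cells. Iglc3, a lambda light chain constant gene, had a UMI in 73 cells and 64.2% after thinning, against 0.0390% of thinned T cells. Dntt, the terminal transferase that adds bases at antigen receptor joints, had 521 and 281 CPM in DKO and 395 and 461 CPM in control, and Rag1 and Rag2 had 0 UMIs. Igkc was uneven, with 391 and 90.7 CPM in DKO and 117 and 374 CPM in control.

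The secretory pathway list was high as a whole. Of its 22 genes 21 were detected and 15 were at their highest in plasmacytoid cells, with a summed level of 6676 CPM against 3800 in type 1 and 4337 in type 2 dendritic cells. Mzb1, a chaperone of the endoplasmic reticulum known from antibody-secreting cells, had 196 and 103 CPM in DKO and 168 and 261 CPM in control, and 0 UMIs in the 3 other dendritic gates. Sec61b, a subunit of the protein-conducting channel, had 790 and 726 CPM in DKO and 972 and 1009 CPM in control. Herpud1, an endoplasmic reticulum stress gene, had 473 and 254 CPM in DKO and 259 and 217 CPM in control.

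Retinoid genes matter here because the tumours differ in enzymes that make retinoic acid. Aldh1a1 and Aldh1a3, which encode Raldh1 and Raldh3, had 0 UMIs in the plasmacytoid cells of the 4 libraries, so these cells give no check of the genotype labels. Of the 25 genes on the list 11 had 0 UMIs. Rara, a retinoic acid receptor, had 40.7 and 57.5 CPM in DKO and 58.5 and 52.2 CPM in control, and the ranges overlapped. Aldh1a2 had 3 UMIs in 1 cell. The response genes Rarb, Cyp26a1 and Cyp26b1 had 0 and Dhrs3 had 3 UMIs. Ccr9 and the integrin chains Itga4 and Itgb7, which retinoic acid is known to induce in T cells, had 2278, 235 and 142 CPM pooled.

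**Figure D3:**
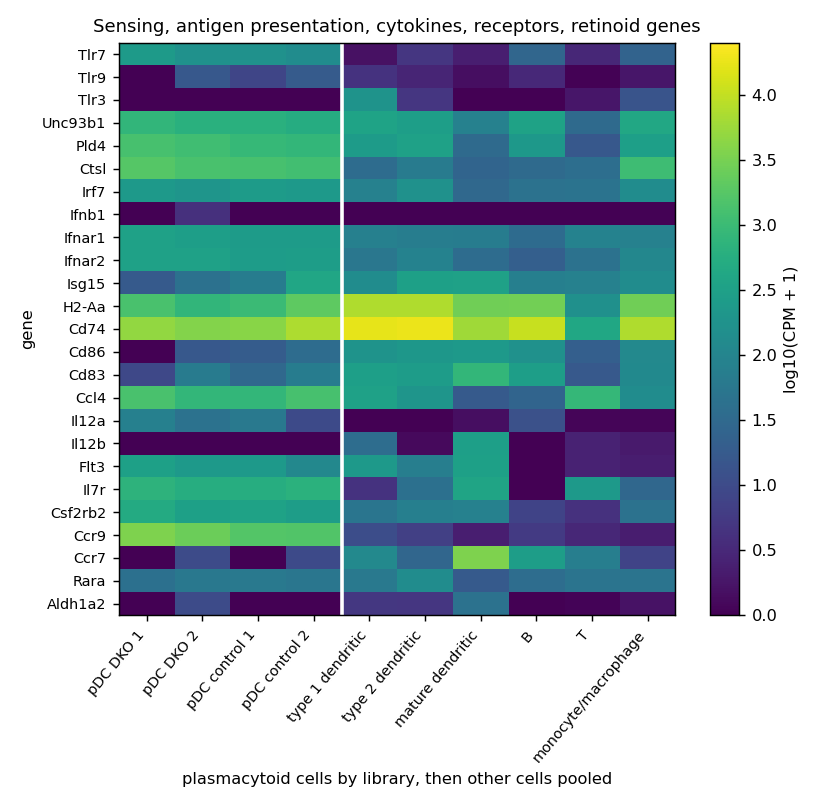
Heat map of log10(CPM + 1) of genes of sensing, antigen presentation, cytokines, receptors and retinoid handling (rows) in the plasmacytoid cells of each library and in 6 other gated populations, pooled. Tlr7, Ctsl, Il7r and Ccr9 are brighter in the plasmacytoid columns than in the dendritic ones, H2-Aa and Cd74 are dimmer, and Ifnb1 is dark with 1 UMI in all.

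Plasmacytoid cells varied among themselves. The number of identity genes with a UMI per cell ran from 10 to 30 with a median of 25. Cox6a2 was detected in 85 of 98 cells, Ly6d in 74, Dntt in 71 and Klk1 in 68. Klk1 and Ly6d occurred together in 57 cells, and 13 cells had neither. Cd4 was found in 44 cells and Cd8a in 28, with both in 16 and neither in 42. Cd209d, a C-type lectin, was found in 8 of 15 and 18 of 30 cells in DKO and in 20 of 38 and 2 of 15 cells in control, so control 2 stood low.

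A small set of 7 cells had no UMI of Cox6a2, Klk1, Ly6d or Dntt, a choice of genes made after their values were seen. They lay in 3 libraries, with 0 and 3 cells in DKO and 3 and 1 in control, and they held 5481 to 11990 UMIs. They had 10 to 17 of the 30 identity genes (median 12), against 14 to 30 (median 25) in the other 91 cells. Cox6a2, Klk1, Ly6d and Dntt are among the 30, so the choice itself lowered this count in the 7 cells. Their Siglech counts were 2 to 7 UMIs, and 4 of the 5 cells at the lower limit of 2 belonged to them. Irf8 was detected in 3 of the 7 and in 91 of the other 91. Bcl11a was similar, with 1284 CPM in the 7 and 1028 CPM in the other 91.

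Some genes of conventional dendritic cells and monocytes were higher in the same 7 cells and others were not, and those named here were picked after their values were seen. Vim, S100a6 and Crip1 summed to a median of 11076 CPM (3234 to 19227) in the 7 cells and 757 CPM (0 to 11399) in the other 91. Ms4a6c had 1044 CPM in the 7 and 85.5 CPM in the other 91, against 694 CPM in type 2 dendritic cells. Spi1 had 582 and 77.8 CPM, Klf4 839 and 260.3 CPM, and Cst3 2772 and 949 CPM in the 7 and the other 91. Other such genes were lower in the 7 or near equal. H2-Aa had 821 CPM in the 7 and 1124 CPM in the other 91, Lyz2 85.6 and 110 CPM, Ly6c2 616 and 1174 CPM, and Mgl2 51.3 and 43.4 CPM. Of the 86 Lyz2 UMIs of the other 91 cells, 38 came from 1 DKO 2 cell of 20966 UMIs. No direction is read for Lyz2. Id2 and Chil3 had 0 UMIs in the 7 cells and 28 and 15 in the other 91. Cx3cr1, a marker of transitional dendritic cells, had 6 UMIs in the 7 cells and 1 in the other 91. Among the other transitional markers, Ms4a4c had 17.1 CPM in the 7 cells and 52.3 CPM in the other 91. Lifr had 342 and 379 CPM, Itgax 171 and 114 CPM, and Cd81 0 and 3 UMIs in the 7 and the other 91. Lyz2, given above, is on the same list. Axl, another such marker, had 1 UMI in the 98 cells. Of the 7 cells 1 was among the highest doublet scores, as were 4 of the other 91. Of the 23 plasmacytoid cells that would also have met the type 2 dendritic gate, 3 were among the 7.

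**Figure D4:**
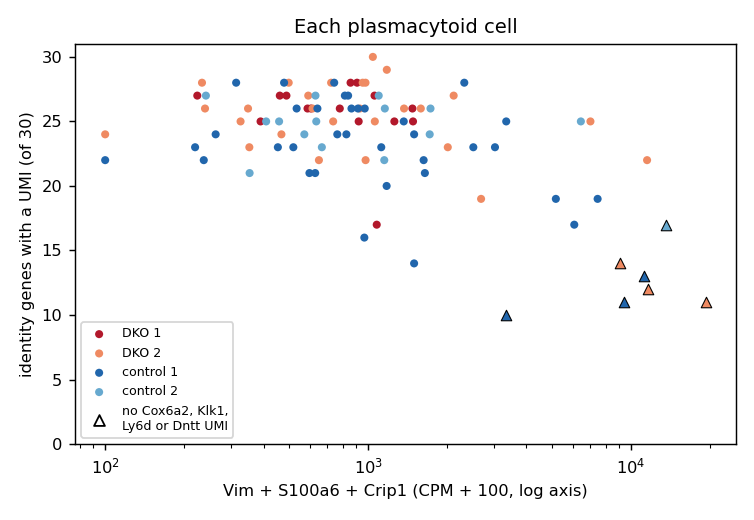
Each plasmacytoid cell by the summed CPM of Vim, S100a6 and Crip1 (with 100 added, log axis) and the number of the 30 identity genes with a UMI, coloured by library. The 7 triangles, cells with no Cox6a2, Klk1, Ly6d or Dntt UMI, lie at 10 to 17 identity genes at the lower right, and most other cells lie at 20 or more. Those genes are among the 30, so the choice itself lowers the triangles.

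Counts were then summed per library over the plasmacytoid cells and DKO was tested against control with edgeR's quasi-likelihood test. Of 3508 genes tested, 0 passed a Benjamini-Hochberg adjusted p of 0.05 (0% called), and the smallest adjusted p was 0.116. DESeq2 also called 0, with 57 genes at an unadjusted p under 0.05. The count was 16 with no filter on low counts, and with a library left out it was 64 without DKO 1, 19 without DKO 2, 19 without control 1 and 9 without control 2. At an unadjusted p under 0.05 edgeR gave 271 genes (7.73%). The 2 DKO libraries lay on the same side of both control libraries for 39.9% of the genes, above them for 22.3% and below them for 17.5%. So the values below describe 15 and 30 cells in DKO and 38 and 15 cells in control, and no gene is reported as changed.

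Among the genes with the smallest p that were higher in DKO, Rhob, a small GTPase, had 65.2 and 130 CPM in DKO and 14.6 and 17.4 CPM in control. It had a UMI in 6 of 15 and 18 of 30 cells in DKO and in 3 of 38 and 1 of 15 cells in control. The groups did not overlap, and the log2 difference was 2.70 ± 0.56 (SE) with an edgeR adjusted p of 0.116. Btg2, an antiproliferative immediate-early gene, had 546 and 541 CPM in DKO and 175 and 287 CPM in control (log2 1.26 ± 0.27, edgeR adjusted p 0.116). Klf2, a factor of lymphocyte quiescence, had 864 and 714 CPM in DKO and 318 and 409 CPM in control (log2 1.09 ± 0.25, edgeR adjusted p 0.116).

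Ccr9 and Gm21762, both leading plasmacytoid genes, were also among them. Ccr9 was higher in both DKO libraries (3569 and 2531 CPM) than in both control libraries (1666 and 1627 CPM), with a log2 difference of 0.84 ± 0.20 and an edgeR adjusted p of 0.190. Gm21762 had 864 and 856 CPM in DKO and 471 and 322 CPM in control (log2 1.04 ± 0.24, edgeR adjusted p 0.116). Slco4a1, Pmaip1, Dusp1, Cd44 and Jun completed the 10, with log2 differences of 0.77 to 1.88 and edgeR adjusted p of 0.195 to 0.275. Of the 149 Dusp1 UMIs, 66 came from 1 DKO 2 cell of 20966 UMIs, and without cells above 15000 UMIs its log2 difference was 1.08 in place of 1.88.

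Of the genes that were lower in DKO, Ly6d, a small membrane-anchored protein of lymphoid progenitors, had 733 and 1055 CPM in DKO and 1509 and 2079 CPM in control. The groups did not overlap, with a log2 difference of -1.02 ± 0.22 and an edgeR adjusted p of 0.116. The control 2 cell of 20192 UMIs held 120 of its 1091 UMIs, and without cells above 15000 UMIs the difference was -0.62. AW112010 had 8.15 and 27.2 CPM in DKO and 117 and 95.7 CPM in control (log2 -2.35 ± 0.50, edgeR adjusted p 0.116). Pycard, the inflammasome adaptor ASC, had 147 and 115 CPM in DKO and 358 and 191 CPM in control (log2 -1.24 ± 0.31, edgeR adjusted p 0.195). Tmsb4x, an actin-binding peptide, had 6323 and 7336 CPM in DKO and 9960 and 11325 CPM in control. Emb, Rgs1, Cyb5a, Edf1, Fxyd5 and Lamtor4 completed the 10, with log2 differences of -0.79 to -1.99 and edgeR adjusted p of 0.195 to 0.455.

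**Figure D5:**
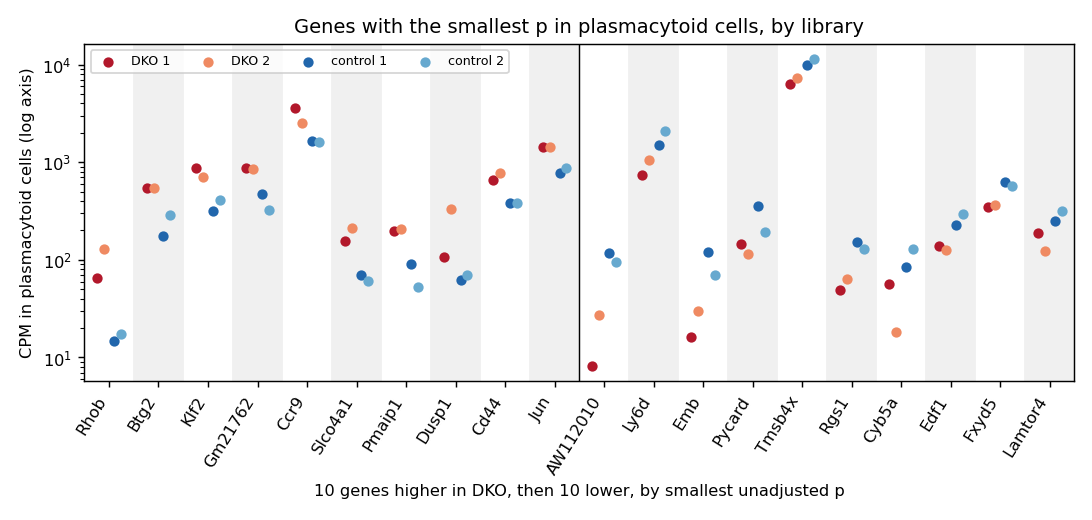
CPM on a log axis in the plasmacytoid cells of each library for the 10 genes higher and the 10 genes lower in DKO with the smallest unadjusted p. The red and orange DKO points lie apart from the blue control points for each gene shown, and no gene passed the adjusted threshold (smallest adjusted p 0.116).

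The gene lists showed no called member. Of the 30 identity genes, 30 were tested, 19 had a positive and 11 a negative log2 difference with a median of 0.18, where 50.8% of all genes tested were positive, 49.2% were negative and their median was 0.01. In 12 identity genes both DKO libraries lay above both control libraries, and in 3 both lay below, against 22.3% and 17.5% of all genes tested. Of 18 sensing genes tested, 13 were positive with a median of 0.17, and of 11 antigen presentation genes tested, 3 were positive with a median of -0.41. Of 13 interferon response genes tested, 4 were positive with a median of -0.25. Slc15a4, a lysosomal transporter needed for Toll-like receptor signalling in these cells, had 204 and 178 CPM in DKO and 80.4 and 78.3 CPM in control (log2 1.19 ± 0.35, edgeR adjusted p 0.375). Ptprcap, a partner of CD45, had 277 and 263 CPM in DKO and 398 and 548 CPM in control (log2 -0.83 ± 0.26, edgeR adjusted p 0.455).

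Stress and immediate-early genes, which cells switch on within minutes of handling or signals, were counted as a list chosen after their values were seen. Of 15 such genes, from Fos and Jun to Hspa1a, 12 were tested, 10 were positive and in 7 both DKO libraries lay above both control libraries, against 50.8% and 22.3% of all genes tested, and nothing is read from these counts since the list was chosen on these values. Their summed level in plasmacytoid cells was 6388 and 8890 CPM in DKO and 4666 and 5219 CPM in control. In type 2 dendritic cells it was 10581 and 11270 CPM in DKO and 7469 and 7887 CPM in control. In type 1 dendritic cells the groups overlapped, at 6680 and 7684 CPM in DKO and 6332 and 7528 CPM in control. In mature dendritic cells it was 7864 and 9792 CPM in DKO and 6596 and 6926 CPM in control, and in T cells 7591 and 9484 CPM in DKO and 7477 and 7149 CPM in control, with no overlap in either. In monocytes and macrophages the groups overlapped, at 7562 and 10232 CPM in DKO and 7682 and 7759 CPM in control. They also overlapped in B cells, where it was 6445 and 7152 CPM in DKO and 7037 and 7645 CPM in control. Outside plasmacytoid cells Rhob had 60.0 and 51.3 CPM in DKO and 14.1 and 13.7 CPM in control in type 2 dendritic cells. Monocytes and macrophages had 174 and 229 CPM of Rhob in DKO and 125 and 124 CPM in control. T cells had 42.7 and 50.5 CPM in DKO and 26.8 and 29.7 CPM in control, and mature dendritic cells 25.7 and 39.2 CPM in DKO and 24.9 and 13.1 CPM in control. These 4 populations showed no overlap, and in type 1 dendritic cells and B cells the groups overlapped. Rhob was picked for its small p in these same libraries. The share of all genes without overlap in those populations was not counted, so nothing is read from this. The median share of mitochondrial UMIs in plasmacytoid cells, given above, was also higher in both DKO libraries, and its part in these values was not tested.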

How the data were processed

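Single-cell RNA was measured in 4 libraries of sorted CD45+ tumour leukocytes. The deposited values were UMI counts per gene and barcode, whole numbers per the file headers, which name matrix software 3.1.0. The submitters' processing notes list Cell Ranger, Seurat 3.1.0, R 3.6.0 and, with no role stated, mm10 beside GRCh38. How reads shared by paralogs or antisense genes were treated is not given in the sources used here.

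Cells were filtered and chosen as described above, with no correction for free RNA. Doublets were scored with Scrublet in scanpy 1.11.5 (the highest 0.8% per 1000 barcodes) and were kept in the main values. The other gates needed at least 2 UMIs of Xcr1 plus Clec9a (type 1 dendritic), of Cd209a (type 2), of each of Ccr7 and Fscn1 (mature) or of Cd79a with Ms4a1 (B), at least 3 of Cd3 (T) or more than 3 of C1q (monocyte/macrophage), and a cell in more than 1 was in none. The other dendritic gates and the B gate also used the C1q and Cd3 limits of the plasmacytoid rule. The T gate used its C1q limit and the monocyte/macrophage gate its Cd3 limit. Of the plasmacytoid cells, 10 also met the type 1 and 23 the type 2 gate and were kept as plasmacytoid alone. CPM were computed from the summed UMIs of the cells. Sums per library were fitted with edgeR 4.0.16 in R 4.3.3 (TMM, filterByExpr, robust quasi-likelihood, Benjamini-Hochberg over all genes tested), a script tested on simulated data, with DESeq2 1.42.0 as an alternative. Genes were named from written lists, as the 30 highest ratios to other cells (a UMI in at least 20% of the plasmacytoid cells and in each of the 4 libraries), and as the 10 smallest p in each direction with at least 50 CPM in the higher group. Slc15a4 and Ptprcap were taken from the lists after their values were seen, as were Vim, S100a6, Crip1 and the genes set beside them. The cells and the lists were chosen with earlier results of these data known. A count of 3 was the floor behind the limits given for 0. The edgeR test gives no SE, so each SE was derived as the absolute log2 difference divided by the square root of the F statistic. Promoters came from RefSeq (GRCm38.p6). Alternatives were other gate limits, filters, denominators, normalisations and left-out libraries.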

Additional observations from a re-analysis of the deposited data

How the results depend on the processing

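The share of plasmacytoid cells, as the log2 ratio of the mean of DKO to that of control, was 0.39. It kept its sign under 10 other gates, filters and denominators and turned with at most 5% mitochondrial UMIs (-0.16) and against gated dendritic cells (-0.22). Leaving out 1 library gave -0.50 (without DKO 2) to 1.17 (without control 1), and -0.12 without control 2. The number of genes called went from 0 to 16 with no filter on low counts, 4 with at least 1 Siglech UMI and 11 with at least 3. Leaving out 1 library gave 9 (without control 2) to 64 calls (without DKO 1), and 19 without DKO 2 and without control 1, from a fit in which the lone library was assumed to vary like the other group, and the causes were not tested. With at least 3 Siglech UMIs, 3 of the 7 cells without Cox6a2, Klk1, Ly6d and Dntt stayed. Same-numbered deviations had a correlation of -0.01 over 3508 genes. With so few cells per library this cannot decide whether the replicate numbers pair the samples. With the number as a replicate block the log2 ratio of shares was 0.36 and 1 gene was called, lower in DKO. The 22 genes tested one by one kept their direction in 194 values under other settings, of which 20 passed the adjusted threshold, and in 86 with a library left out. A gene dropped by the count filter of a setting gave no value there. Of the 22, 20 were picked for the smallest p in these same libraries, and Slc15a4 and Ptprcap after their values were seen. Their kept direction was thus largely fixed by the choice and is no further support. Cells without the 7, without those above 15000 UMIs, without the highest doublet scores, and RLE size factors each gave 0 calls; the cells above 15000 UMIs and the 7 were set aside by rules chosen after seeing the data. With 15 to 38 cells per library, genes of a few UMIs per library could not be compared.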
